A study of Mus musculus with 20 samples.

Results

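Usp2, which encodes ubiquitin-specific protease 2, was followed in mouse liver as 1 gene of the 55359 identifiers counted in each of 20 libraries. It was found by its symbol, which 1 identifier carried (ENSMUSG00000032010.16), and it was chosen by its counts in these libraries, which earlier results had put higher with exercise. Its levels in exercised and non-exercised mice are therefore given as a description, with no test, and so is the difference between the exercise effects. The diet comparison and the comparisons of tumour with non-tumour tissue rest on contrasts other than the one that chose it, although they share libraries with that contrast. A gene chosen for high values in exercised and low values in non-exercised mice is favoured to be lower in exercised tumours than in exercised non-tumour liver and lower on the high-fat diet, so the p-values there are no independent support of those directions.

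The mice were male, wild type, of the strain written C56BL/6, and 35 weeks old. Per the labels' protocols, neonates had 50 μL of 0.5% 7,12-dimethylbenz(a)anthracene (DMBA), a chemical carcinogen, put on the back on postnatal day 4 to 5. Dams and pups were then given a high-fat diet (60 kcal% fat) or a normal diet (12 kcal% fat), which the pups kept to the end. From 20 weeks of age, part of the high-fat mice were trained on a treadmill, in the end running 20 min daily, 5 times weekly, at 18 m/min, while non-exercised mice stayed in their cages in the same room. Bulk RNA came from 5 groups of 4 libraries: tumour tissue and non-tumour tissue of exercised high-fat mice, tumour tissue and non-tumour tissue of non-exercised high-fat mice, and liver of non-exercised mice on the normal diet. Exercised and non-exercised mice were killed on the same day, within 2 hours of the last run, and no label gives the clock time or says whether it also held for the normal-diet mice. A last bout of running and the weeks of training cannot be told apart in this design, and the protocol describes the obese mice as those over 45 g. As a shared carcinogen was given, none of the groups is an untreated liver.

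Ubiquitin-specific proteases cut ubiquitin from proteins and can thereby spare them from breakdown by the proteasome. In mouse liver its transcript is known to cycle over the day under the circadian clock, in which CLOCK and BMAL1 drive the Per and Cry genes that repress them in turn, and it is also known to respond to fasting and glucocorticoids. Proteins reported to be deubiquitinated by USP2 include cyclin D1, MDM2, fatty acid synthase and clock proteins such as PER1.

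In the annotation of the deposited files Usp2 lies on the + strand of chromosome 9, from 43978318 to 44006924 on GRCm39, with 31 distinct exons and 4818 bases of exonic sequence. GENCODE vM21, on GRCm38, lists protein-coding transcripts that encode 619 residues (Usp2-201, Usp2-203 and Usp2-208), 396 residues (Usp2-202), 393 residues (Usp2-206) and 174 residues (Usp2-207). The counts are summed over the gene, so long and short isoforms cannot be told apart. The genes that overlap it on the other strand, Gm49380 and Gm39325, held 2 and 0 counts over all 20 libraries. Before Usp2, the nearest tested gene is Thy1, 18442 bases away on the same strand. Its log2 fold changes ran from -1.39 ± 0.44 (SE) with exercise in non-tumour liver to 1.08 ± 0.45 for tumours of exercised mice. None of the 5 passed the test named below. The nearest gene after Usp2 is Rnf26, a RING finger E3 ligase gene 4 bases away on the other strand. Its log2 fold changes lay between 0.07 and 0.24 in the 5 comparisons between groups, and none passed the test used throughout (edgeR's quasi-likelihood test, adjusted p under 0.05 over all 14428 genes tested).

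The promoter window that RefSeq gives for Usp2 is printed because the gene is known as a clock output, and its letters show which common clock and cAMP motifs stand next to this start site. The window runs from 250 bases before to 50 bases after the start site, at chr9:44084670-44084969 on the + strand of GRCm38.p6, 5′ to 3′. Capitals mark the only match to TGACG, the core of the element bound by CREB, a factor activated through cAMP.
Usp2 promoter: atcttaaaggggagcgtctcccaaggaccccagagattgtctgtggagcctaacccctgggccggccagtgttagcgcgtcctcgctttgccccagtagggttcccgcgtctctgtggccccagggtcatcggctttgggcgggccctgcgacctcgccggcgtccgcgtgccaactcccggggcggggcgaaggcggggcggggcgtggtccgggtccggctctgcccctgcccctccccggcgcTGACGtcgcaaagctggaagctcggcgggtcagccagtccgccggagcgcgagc

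The TGACG match begins at position -4, and 20.8% of the 32851 RefSeq mouse promoter windows of this length hold that motif on either strand. The window held 3 matches to the GC box GGGCGG, beginning at -113, -69 and -53, which 35.7% of windows hold at least once. It held 0 matches on either strand to the E-box CACGTG (in 7.15% of windows), the E′-box CACGTT (4.68%), the D-box TTANGTAA (2.32%), the ROR motif AGGTCA (16.3%) and the full cAMP element TGACGTCA, which contains TGACG (1.79%). Of its letters 71.7% were G or C, against a median of 52.7% over all windows. The window is next to the start of the short forms: Usp2-202 starts 19 bases and Usp2-206 30 bases after its start site, whereas Usp2-201 starts 17899 bases before it. Other starts and distant elements were not searched.

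Total counts ran from 16471378 to 20271948 a library, and Usp2 held between 14 and 663 of them. Its level is given as CPM, counts scaled to the library's total after TMM correction. The libraries expressed hepatocyte markers, and Alb alone took 4.06% to 15.9% of counts. Markers of skeletal muscle, a tissue rich in Usp2, summed to at most 0.279 CPM in any library. The non-tumour library of exercised mouse 1 held the highest Usp2 level, and the values of Usp2 that rest on it are also given without it. In bulk RNA, fewer cells of a type and less RNA per cell cannot be told apart. The labels number mice but name no cultures, cages or batches, so a p-value here measures no more than how far these samples spread.

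Usp2 was highest in non-tumour liver of exercised mice and lowest in tumours of non-exercised mice. In exercised high-fat mice, tumours had 3.27, 4.11, 4.05 and 3.27 CPM of Usp2 in mice 1 to 4. Non-tumour liver of the exercised mice had 40.3, 14.4, 7.61 and 12.2 CPM. The library of mouse 1 there was the highest of all 20.

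In non-exercised high-fat mice, tumours had 0.787, 1.03, 1.12 and 1.09 CPM of Usp2, from 14 to 24 counts each. Non-tumour liver of the non-exercised high-fat mice had 2.13, 2.78, 1.74 and 2.86 CPM. Non-exercised mice on the normal diet had 7.76, 4.25, 5.04 and 4.58 CPM, so every high-fat library without exercise lay below every normal-diet library.

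Ordered by mean, Usp2 was 18.6 ± 14.7 CPM in exercised non-tumour liver, 5.41 ± 1.60 CPM in normal-diet liver, 3.67 ± 0.472 CPM in exercised tumours, 2.38 ± 0.537 CPM in non-exercised high-fat non-tumour liver and 1.003 ± 0.149 CPM in non-exercised tumours (SD, n = 4 each). Of the neighbours in that order, only exercised non-tumour liver and normal-diet liver overlapped: mouse 3 of the exercised mice (7.61 CPM) lay below mouse 1 of the normal-diet mice (7.76 CPM), and the other 3 exercised libraries lay above all 4 normal-diet ones. Without the library of mouse 1, exercised non-tumour liver averaged 11.4 ± 3.46 CPM (SD, n = 3) and kept its place. The order and the spread are shown in the plot of Usp2 by library.

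**Figure D1:**
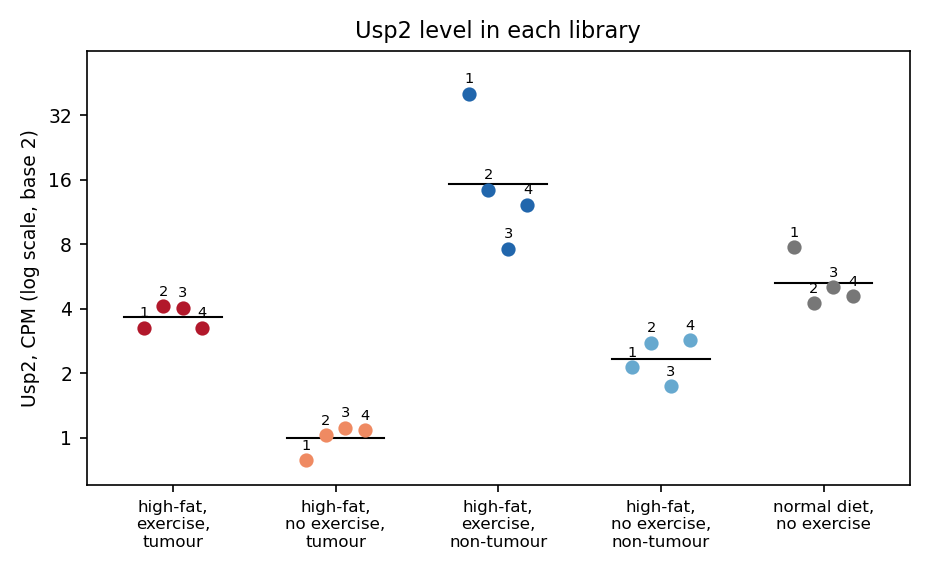
Usp2 in each of the 20 libraries, in CPM on a log axis, by group; the number beside a point is the mouse number and the bar is the geometric mean of 4 libraries. Exercised non-tumour liver reaches 40.3 CPM in mouse 1, and tumours of non-exercised mice lie between 0.787 and 1.12 CPM.

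In non-tumour liver, Usp2 was 7.80-fold higher in exercised than in non-exercised mice (log2 fold change 2.96 ± 0.39, SE). All 4 exercised libraries (7.61 to 40.3 CPM) lay above all 4 non-exercised ones (1.74 to 2.86 CPM). By size of fold change Usp2 stood at place 13 from the top of 14428 genes. Without the library of exercised mouse 1 the fold was 4.81 (log2 fold change 2.27 ± 0.25, SE), at place 14 of 14657 genes, and the groups still did not overlap. Over all genes, 2.54% had every exercised library above every non-exercised one, and 0.0139% passed the test, both of which belong to the contrast that chose Usp2.

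In tumours, Usp2 was 3.63-fold higher in exercised than in non-exercised mice (log2 fold change 1.86 ± 0.42, SE), at place 32 of 14428 genes. The exercised tumours lay between 3.27 and 4.11 CPM, against 0.787 to 1.12 CPM in the non-exercised tumours, with no overlap. For all genes, 2.27% had every exercised tumour above every non-exercised tumour, and 0.0208% passed the test. The exercise effect on Usp2 was smaller in tumours than in non-tumour liver by 1.10 ± 0.57 on the log2 scale (value -1.10). That difference depended on 1 library: without exercised non-tumour library 1 it was -0.42 ± 0.36, and it was not tested. No tested marker of hepatocytes, macrophages, lymphocytes, stellate cells, endothelium, cholangiocytes or red cells passed the test with exercise in either tissue. Only 2 of all genes in non-tumour liver and 3 in tumours passed, so this does not show an unchanged makeup. The summed macrophage markers lay at 370 to 485 CPM in exercised and 351 to 470 CPM in non-exercised non-tumour liver. Members of that list moved in opposite directions there, such as Marco (2.12 ± 0.81, SE) and Itgax (-1.53 ± 0.45). Summed T, NK and B cell markers lay at 3.54 to 6.81 CPM in exercised and 5.19 to 15.4 CPM in non-exercised non-tumour liver. Other lists leaned one way there, beside a median log2 fold change of -0.01 over all genes. The median was 0.32 for hepatocyte, 0.20 for red cell and 0.05 for endothelial markers. It was -0.23 for macrophage, -0.58 for T, NK and B cell, -0.59 for stellate cell and -0.65 for cholangiocyte markers. The part of cell makeup in the Usp2 values was not tested.

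Tumours held less Usp2 than non-tumour liver in both arms. In exercised mice the tumours were 5.05-fold lower (log2 fold change -2.34 ± 0.38, SE; edgeR adjusted p = 0.000323), and without non-tumour library 1 they were 3.11-fold lower (log2 fold change -1.64 ± 0.24; adjusted p = 0.000473). The call held under all 16 alternatives tried. It was weakest with a block for mouse (log2 fold change -2.05 ± 0.45, edgeR adjusted p = 0.0250). On the compared groups only, the edgeR adjusted p was 0.0145. Of all genes, 16% were called lower in exercised tumours and 13.9% had every tumour below every non-tumour library, as Usp2 had. In non-exercised mice the tumours were 2.35-fold lower (log2 fold change -1.23 ± 0.43, SE; edgeR adjusted p = 0.0305), where 17.8% of genes were called lower and 18.2% did not overlap in that direction.

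The call in non-exercised mice was less steady. It held on the compared groups only (edgeR adjusted p = 0.00672) and with a block for mouse (0.0251). It was lost without non-tumour library 2 or 4 (adjusted p = 0.0743 and 0.0694), without tumour library 1, 2 or 4 (0.0972, 0.0661 and 0.0588), with limma-voom (0.228) and with no filter on low counts (0.0888), although the sign did not change. The tumours also differed from non-tumour liver in cell markers, whose members moved in both directions. Of all genes, 18.6% were called higher and 16% lower in exercised tumours, and 18% and 17.8% in non-exercised tumours. Of 9 hepatocyte markers 3 rose and 3 fell in exercised tumours, and 3 rose and 3 fell in non-exercised tumours. Alb rose (1.25 ± 0.23 in exercised and 1.404 ± 0.23 in non-exercised tumours; edgeR adjusted p = 0.000678 and 0.000241), while Cps1, the first enzyme of the urea cycle, fell (-0.90 ± 0.21 and -0.89 ± 0.21; adjusted p = 0.00401 and 0.00387). Of 6 cholangiocyte markers, Spp1 and Sox9 rose in exercised tumours and 0 fell; in non-exercised tumours Spp1 and Sox9 rose and Krt19 fell (-1.12 ± 0.39; adjusted p = 0.0332). Of 12 macrophage markers 0 rose and 4 fell in exercised tumours, and 0 rose and 3 fell in non-exercised tumours. Their sum overlapped between tissues in non-exercised mice, at 165 to 527 CPM in tumours and 351 to 470 CPM in non-tumour liver. It lay at 182 to 366 CPM in exercised tumours, against 370 to 485 CPM in exercised non-tumour liver. The part of these cell types in the Usp2 values was not tested.

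**Figure D2:**
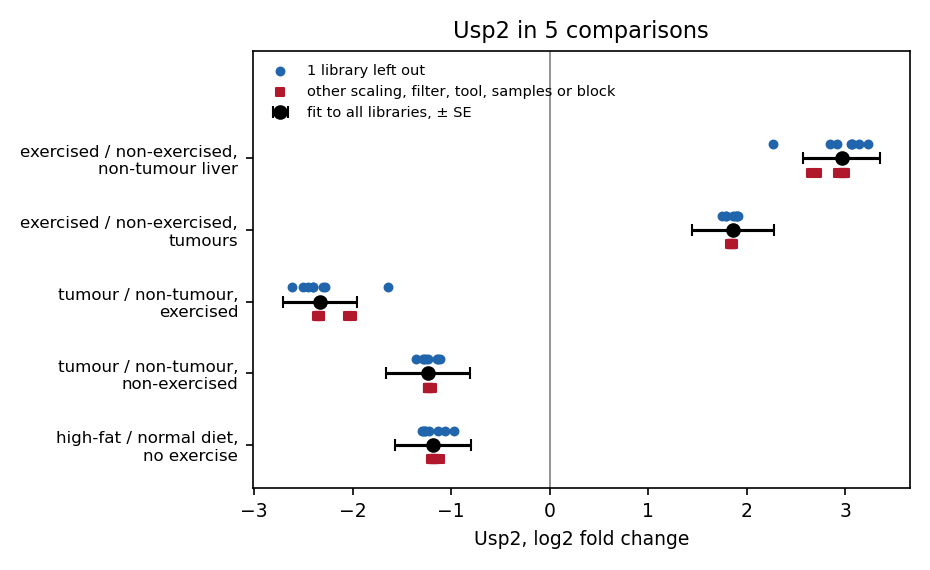
Log2 fold change of Usp2 in 5 comparisons: black points with bars are the fit to all 20 libraries ± SE, blue points above them the fits with 1 library left out, and red squares below them other scalings, filters, tools, samples or the block. Exercise values lie above 0 and tumour and diet values below 0; the blue points set apart are fits without exercised non-tumour library 1, at 2.27 with exercise and -1.64 for tumours.

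Read by mouse number, which the titles give for each piece, the tumour held less Usp2 than the non-tumour piece in 4 of 4 exercised and 4 of 4 non-exercised mice. The tissues did not overlap within either arm, so any matching of the pieces would give these counts. In exercised mice the tumour held 0.0811, 0.286, 0.533 and 0.267 of the non-tumour level in mice 1 to 4. In non-exercised mice it held 0.369, 0.369, 0.642 and 0.380 of it. Exercised mouse 1, with the highest non-tumour level, had one of the lower exercised tumour levels, at 3.27 CPM. Among exercised mice the SD of Usp2 on the log2 CPM scale was 0.18 in tumours and 1.01 in non-tumour pieces, or 0.47 in non-tumour pieces without mouse 1.

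**Figure D3:**
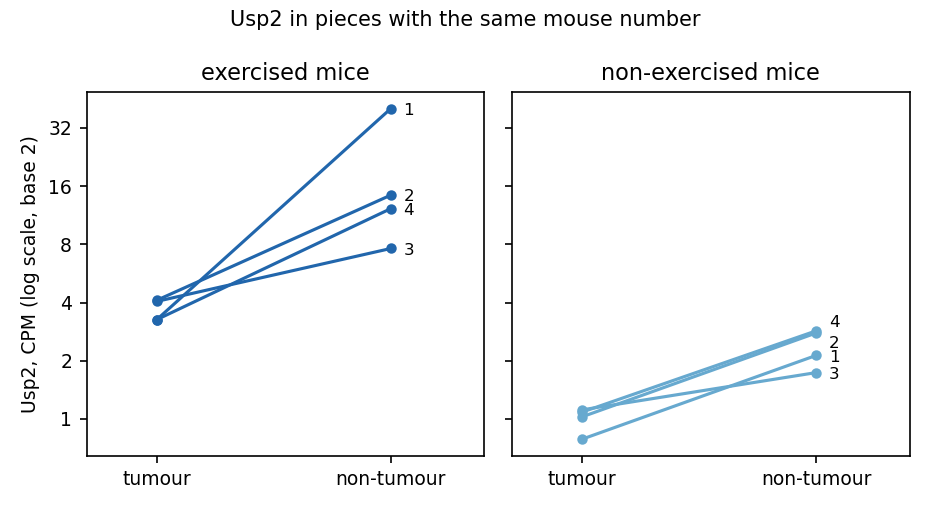
Usp2 in tumour and non-tumour tissue joined by mouse number, in CPM on a log axis, for exercised and non-exercised high-fat mice. Each of the 8 lines is lower at the tumour end, as any matching of the pieces would give. Exercised mouse 1 has the steepest line, 3.27 against 40.3 CPM.

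The high-fat diet went with less Usp2 in liver of non-exercised mice. Non-tumour liver on the high-fat diet held 2.38 ± 0.537 CPM and normal-diet liver 5.41 ± 1.60 CPM (SD, n = 4 each), a 2.27-fold lower level (log2 fold change -1.18 ± 0.38, SE; edgeR adjusted p = 0.0303). Of all genes, 11.9% were called lower and 16.3% had every high-fat library below every normal-diet one. The call was lost without normal-diet library 1 (adjusted p = 0.0978), without high-fat library 1 or 3 (0.0702 and 0.0872), with limma-voom (0.138) and with no filter (0.0750). It held on the compared groups only (edgeR adjusted p = 0.00407). Macrophage markers rose with the diet in 8 of 12 cases, beside 14% of all genes called higher. Their sum lay at 351 to 470 CPM on the high-fat and 214 to 297 CPM on the normal diet. Hepatocyte markers fell in 5 of 9, beside 11.9% of all genes, and the part of either cell type in the Usp2 value was not tested. Read by mouse number, the high-fat pieces came from mice that also gave tumour tissue, whereas the normal-diet group has no tumour pieces. Whether the normal-diet mice were killed at the same time of day is not given. Diet, a tumour in the same liver and the time of killing therefore cannot be told apart in this comparison. The normal-diet liver was not compared with the exercised groups by a fit, and its levels beside theirs are a description.

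Within the ubiquitin-specific protease family, 43 of the other 50 members passed the filter on low counts. Per kilobase of exonic length, Usp2 averaged 3.87 RPKM in exercised non-tumour liver, place 23 of the 44 tested members, or 2.37 RPKM and place 29 without the library of mouse 1. It averaged 1.12 RPKM on the normal diet (place 34), 0.763 RPKM in exercised tumours (37), 0.493 RPKM in non-exercised high-fat non-tumour liver (40) and 0.208 RPKM in non-exercised tumours (44, the lowest). The most abundant members were Usp5, which disassembles free ubiquitin chains, and Usp8, which acts on endosomal receptors, at 13.01 to 15.6 RPKM in every group.

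Exercise moved no other family member past the test. In non-tumour liver 0 of 43 passed with edgeR, with DESeq2 and with limma-voom, and 1 was higher and 0 lower at an unadjusted p under 0.05; their log2 fold changes lay between -0.64 (Usp43) and 0.32 (Usp53), beside 2.96 for Usp2. In tumours 0 of 43 passed with the same tools, and 1 was higher and 1 lower at an unadjusted p under 0.05, between -0.61 (Usp43) and 0.27 (Usp27x), beside 1.86 for Usp2. Over all 14428 genes edgeR called 2 in non-tumour liver and 3 in tumours, DESeq2 117 and 79, and limma-voom 0 and 4. At an unadjusted p under 0.05 there were 1203 and 1252. Usp2 had the highest fold of the 44 in both tissues, which restates how it was chosen. Its fold was the lowest of the 44 in the diet comparison and in both tumour comparisons, which share libraries with that choice.

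On the high-fat diet 3 of the 43 rose and 11 fell, with a median of -0.19 on the log2 scale beside 0.01 over all genes; 14% of all genes were called higher and 11.9% lower. Without high-fat library 3, 7 fell. Usp18, an interferon-induced protease that removes ISG15, rose (1.69 ± 0.27), while Usp53 (-0.59 ± 0.11), Usp3, a histone deubiquitinase (-0.49 ± 0.08), and Usp47 (-0.37 ± 0.07) fell (edgeR adjusted p = 0.000417, 0.00161, 0.000404 and 0.00178). In exercised tumours 2 rose and 7 fell, beside 18.6% and 16% of all genes, with a median of -0.06 beside 0.01. In non-exercised tumours 3 rose and 5 fell, beside 18% and 17.8% of all genes, with a median of 0.03 beside -0.01. Without non-exercised tumour library 1, 2 in place of 5 fell. In exercised tumours 1 in place of 2 rose when non-tumour library 1 or 4, or library 1, 2 or 4 of the tumours, was left out. Usp43 rose in exercised tumours (2.47 ± 0.58; adjusted p = 0.00387) and non-exercised tumours (2.43 ± 0.55; adjusted p = 0.00239). Usp10, which acts on p53, fell in exercised tumours (-0.43 ± 0.10; adjusted p = 0.00480) and non-exercised tumours (-0.49 ± 0.10; adjusted p = 0.00162). With mouse as a block, 3 in place of 7 fell in exercised tumours.

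**Figure D4:**
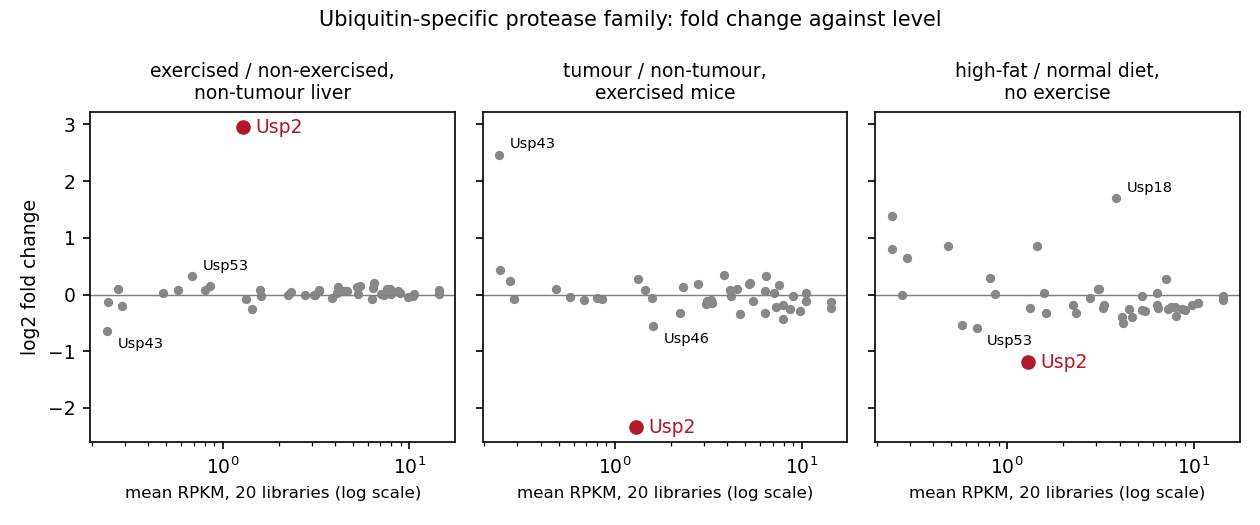
Log2 fold change against mean level in RPKM over 20 libraries (log axis) for the 44 tested ubiquitin-specific proteases, for exercise in non-tumour liver (left), tumour against non-tumour tissue of exercised mice (middle) and the high-fat against the normal diet (right). Each grey point is a gene and Usp2 is red, at 2.96, -2.34 and -1.18; the other 43 lie between -0.64 and 0.32 in the left panel.

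The core clock list holds 23 genes, all of them tested. With exercise in non-tumour liver, 0 passed with edgeR and 0 with limma-voom, while DESeq2 called 6 higher and 1 lower, and 11 were higher and 2 lower at an unadjusted p under 0.05 (median 0.24, beside -0.01 over all genes). Over all 14428 genes, DESeq2 called 95 higher and 22 lower there, and 1203 had an unadjusted p under 0.05 in either direction. Without exercised non-tumour library 3, edgeR called 4 clock genes higher. In exercised against non-exercised tumours edgeR called 2 higher. They were Cry2, a repressor of the clock (0.62 ± 0.09, adjusted p = 0.0232), and Tef, a PAR-bZIP activator of D-boxes (1.45 ± 0.24, adjusted p = 0.0423). These calls were lost under 7 and 12 of 16 alternatives. On the compared groups only, both had an edgeR adjusted p of 0.593. With the replicate block it was 0.284 for Cry2 and 0.353 for Tef. Both were lost without exercised tumour library 1, 2 or 4 or non-exercised tumour library 1 or 2 (adjusted p = 0.0760 to 0.149). Tef was also lost without non-exercised tumour library 4 (0.205) and with the other scalings and filters (0.0507 to 0.112). Without exercised tumour library 3, by contrast, 7 clock genes were called higher. Limma-voom also called 2 higher, whereas DESeq2 called 8 higher and 1 lower. At an unadjusted p under 0.05, 11 were higher and 4 lower in exercised against non-exercised tumours (median 0.35, beside 0.01). Over all genes in tumours, edgeR called 3 higher and DESeq2 called 61 higher and 18 lower. There 1252 genes had an unadjusted p under 0.05 in either direction.

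Dbp, the PAR-bZIP activator that is a direct clock output like Tef, had 111, 30.8, 24.9 and 25.4 CPM in exercised tumours, against 3.65, 9.44, 6.55 and 6.41 CPM in non-exercised tumours. In non-tumour liver it had 105.5, 44.2, 20.0 and 51.7 CPM in exercised mice, against 11.2, 11.9, 7.99 and 11.47 CPM in non-exercised mice. Dbp thus lay higher in every exercised library without passing the test (adjusted p = 0.0634 in tumours and 0.141 in non-tumour liver). In exercised mouse 1, Dbp was high in both pieces, whereas Usp2 was high in the non-tumour piece only.

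On the high-fat diet, where Usp2 fell, 4 of 23 clock genes rose and 5 fell, beside 14% and 11.9% of all genes. Dbp (3.14 ± 0.62), Per3 (1.54 ± 0.34), Nr1d1, which encodes the repressor REV-ERBα (1.39 ± 0.26), and Nr1d2 (1.13 ± 0.20) rose, while Nfil3, the repressor at D-boxes (-1.29 ± 0.22), and Clock (-0.61 ± 0.14) were among 5 that fell (edgeR adjusted p = 0.000761 to 0.00446). In exercised tumours 3 of 23 rose and 3 fell, beside 18.6% and 16% of all genes, and without exercised tumour library 4 there were 5 that fell. In non-exercised tumours 3 rose and 5 fell, beside 18% and 17.8%, shares close to those of all genes. Tef fell in exercised tumours (-0.88 ± 0.23; adjusted p = 0.00771) and in non-exercised tumours (-1.12 ± 0.24; adjusted p = 0.00161), as did Hlf, the third PAR-bZIP gene (-0.81 ± 0.14 and -0.89 ± 0.14; adjusted p = 0.000593 and 0.000241). With mouse as a block, 5 rose and 6 fell in exercised tumours. The medians of the list were -0.14 with the diet, -0.15 in exercised tumours and -0.14 in non-exercised tumours, beside 0.01, 0.01 and -0.01 over all genes.

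Of 18 genes of the fasting, glucagon and glucocorticoid programme, 0 rose and 9 fell on the high-fat diet (median -0.71 beside 0.01), beside 14% and 11.9% of all genes. Without normal-diet library 1 there were 4 that fell, and without library 1 or 4 of the high-fat liver there were 5; without high-fat library 1 or 3, 1 rose. Igfbp1, a liver-secreted binding protein raised by fasting (-2.56 ± 0.63; edgeR adjusted p = 0.00767), and Foxo1, a transcription factor held back by insulin (-0.82 ± 0.21; adjusted p = 0.00956), were among those that fell with Usp2. In exercised tumours 1 rose and 2 fell, beside 18.6% and 16% of all genes, and in non-exercised tumours 1 rose and 7 fell, beside 18% and 17.8% (medians -0.35 and -0.53). Leaving out 1 library gave 0 to 4 that fell in exercised tumours, with 0 without non-tumour library 1, 4 without non-tumour library 3 or tumour library 4, and 1 without non-tumour library 4 or tumour library 1, 2 or 3. In non-exercised tumours 3 fell without tumour library 1 or 2, and 4 fell and 2 rose without non-tumour library 4. In exercised tumours 2 rose without tumour library 3. Igfbp1 was the gene that rose in exercised tumours (3.76 ± 0.66; adjusted p = 0.000678) and in non-exercised tumours (3.42 ± 0.65; adjusted p = 0.000900). With mouse as a block the counts were 3 and 6 in exercised tumours. With exercise 0 of 18 passed with edgeR and limma-voom in either tissue; DESeq2 called 4 higher in non-tumour liver and 3 in tumours, and at an unadjusted p under 0.05 there were 9 and 11 higher and 0 lower (medians 0.53 and 0.62, beside -0.01 and 0.01). Over all 14428 genes, DESeq2 called 95 higher in non-tumour liver and 61 in tumours. At an unadjusted p under 0.05 there were 1203 and 1252 genes, in either direction. Without exercised non-tumour library 3 edgeR called 2 of the 18 higher, and in tumours 2 without non-exercised library 3 and 1 without exercised library 3.

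Among 9 other genes with a known daily rhythm in liver, Wee1, a mitotic inhibitor kinase, was the 1 that rose on the high-fat diet, and Por and Alas1, which serve cytochrome P450 and haem synthesis, were the 2 that fell, beside 14% and 11.9% of all genes. The call of Wee1 was lost with limma-voom (adjusted p = 0.0515) and when library 4 of either diet or library 2 of the normal diet was left out (0.0513 to 0.0760). That of Alas1 was lost with no filter on low counts (adjusted p = 0.0616). It was also lost when library 3 of the normal diet, or 1 or 4 of the high-fat diet, was left out (0.0553 to 0.0663). Of all genes, 16% were called lower in exercised and 17.8% in non-exercised tumours. Alas1 fell in exercised tumours (-1.54 ± 0.42; edgeR adjusted p = 0.0102), together with Por and Nampt, and it alone fell in non-exercised tumours, where a block for mouse gave 3 and where its call was lost without tumour library 1 or 2 (adjusted p = 0.0502 and 0.05004), while 3 fell without tumour library 3. With exercise 0 of 9 passed with edgeR and limma-voom in either tissue; DESeq2 called 2 higher and 1 lower in non-tumour liver and 1 higher in tumours, and 3 were higher and 2 lower in each at an unadjusted p under 0.05. Over all 14428 genes, DESeq2 called 95 higher and 22 lower in non-tumour liver and 61 higher in tumours. At an unadjusted p under 0.05 there were 1203 and 1252 genes, in either direction. Without exercised non-tumour library 3, or without non-exercised tumour library 3, edgeR called 1 of the 9 higher.

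Of the genes whose proteins are known as USP2 substrates or partners, 11 of 12 were tested. Exercise moved 0 of them past the test with edgeR and limma-voom, and DESeq2 called 1 higher in each tissue. At an unadjusted p under 0.05, 1 was higher and 1 lower in non-tumour liver, and 1 higher and 3 lower in tumours. Over all 14428 genes, DESeq2 called 95 higher in non-tumour liver and 61 in tumours. At an unadjusted p under 0.05 there were 1203 and 1252 genes. Of the 11, 2 rose and 0 fell in exercised tumours, beside 18.6% and 16% of all genes. In non-exercised tumours 3 rose and 0 fell, beside 18% and 17.8%. Among them Aurka, a mitotic kinase, rose in exercised tumours (1.41 ± 0.33, edgeR adjusted p = 0.00387) and non-exercised tumours (2.42 ± 0.34, adjusted p = 0.000101). Ccnd1, which encodes cyclin D1, rose in exercised tumours (1.24 ± 0.35; adjusted p = 0.0122) and non-exercised tumours (1.61 ± 0.36; adjusted p = 0.00249). On the high-fat diet 4 rose and 2 fell, beside 14% and 11.9% of all genes. Fasn, fatty acid synthase (1.86 ± 0.32; adjusted p = 0.000818), and Aurka (1.98 ± 0.41; adjusted p = 0.00232) were among those that rose and passed under all 16 alternatives, whereas the calls of Cry1, lower, and Ccnd1, higher, were lost under 5 and 7 of them. When library 1 of the normal diet, or 1, 3 or 4 of the high-fat diet, was left out, 1 in place of 2 fell. Without exercised tumour library 3, 1 rose with exercise in tumours, and without non-exercised tumour library 3, 1 fell in non-exercised tumours. These are transcript levels, and deubiquitination acts on the proteins, which were not measured.

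The genes whose level followed Usp2 most closely were found by Pearson's r of log2 CPM over the 20 libraries, among 11885 named genes with a mean of at least 1 CPM. These r values are a description: the libraries share the groups and, by mouse number, some animals. The highest were Pptc7, a mitochondrial phosphatase gene (r = 0.927), Etnk2, an ethanolamine kinase gene (0.927), Ube2g1, a ubiquitin-conjugating enzyme gene (0.925), Gne, of sialic acid synthesis (0.901), Mbd1, a methyl-CpG-binding protein gene (0.890), Hs6st1, of heparan sulfate synthesis (0.887), Il1r1, the interleukin-1 receptor gene (0.883), and Fbxo34, an F-box gene (0.879). The lowest were Tnfaip2 (-0.890), Pard6b (-0.884), Efnb1 (-0.878) and Cdc42se2 (-0.867). The median r over all 11885 genes was -0.04. Without exercised non-tumour library 1 the top 8 had r between 0.83 and 0.927.

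Deviations from the group means show how far that likeness goes within groups. Over the 20 libraries Pptc7 had 0.83, while Gne had 0.507 and Mbd1 0.354. The highest were Gpcpd1, a glycerophosphocholine phosphodiesterase gene (0.858), Ipp (0.851), Pptc7, Azin1, an antizyme inhibitor gene (0.777), and Cyp2c70, of bile acid hydroxylation (0.767). They leaned on 1 library: without exercised non-tumour library 1, the r of deviations was 0.589 for Gpcpd1, 0.671 for Ipp, 0.664 for Pptc7, 0.517 for Azin1 and 0.430 for Cyp2c70. Gpcpd1 had 329, 80.5, 31.3 and 65.4 CPM in exercised and 25.5, 36.7, 35.6 and 35.5 CPM in non-exercised non-tumour liver, with mouse 1 on top as for Usp2.

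Among the clock genes, Tef (r = 0.844) and Hlf (0.814) were most like Usp2 over the 20 libraries. Dbp had 0.373 over the 20 libraries and 0.828 over the 16 high-fat libraries, and Per3 had 0.370 and 0.773; normal-diet livers had 1.03 to 1.46 CPM of Dbp beside 4.25 to 7.76 CPM of Usp2. Npas2, a partner of BMAL1, had an r of -0.784 and Arntl, which encodes BMAL1, -0.608. Both were lowest in exercised non-tumour library 1, at 0.668 CPM of Npas2 and 3.46 CPM of Arntl, where Usp2 was highest. Without that library their r was -0.666 and -0.369.

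**Figure D5:**
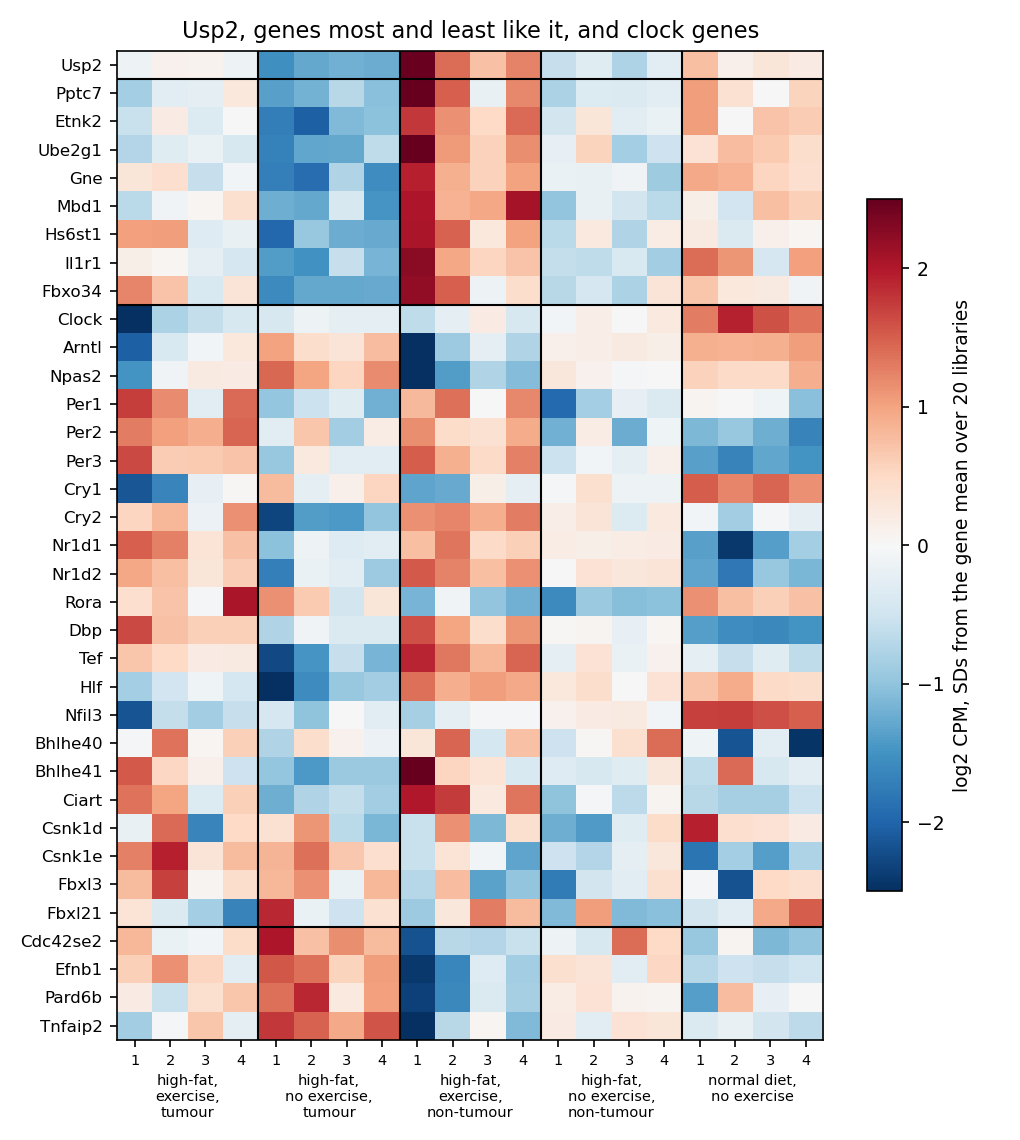
Usp2, the 8 genes most like it, genes of the clock list and the 4 genes least like it in 20 libraries, as log2 CPM in SDs from each gene's mean over the libraries (colour), with columns by group and mouse number. Library 1 of exercised non-tumour liver has the darkest red for Usp2 and the darkest blue for Arntl and Npas2 among the libraries, and normal-diet libraries are red for Usp2 and blue for Dbp and Per3.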

How the data were processed

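Raw read counts per gene were deposited by the authors for 20 mouse liver libraries (stranded mRNA kit, per the labels' protocols). Per the file headers, featureCounts of Subread 2.0.5 counted exons with the strand setting for reverse-stranded reads. Reads had been aligned to GRCm39 with STAR 2.7.11a after Trim Galore 0.6.10, per the submitters' processing notes, and GENCODE vM27 is named in the file headers. Symbols were matched for 52083 of 55359 identifiers; Tf had none under that symbol.

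From these counts, filterByExpr (minimum count 10, total 15) kept 14428 genes. TMM scaling and edgeR 4.0.16 (quasi-likelihood, robust, R 4.3.3, limma 3.58.1) fitted 5 group means over all libraries, with Benjamini-Hochberg adjustment. RPKM is CPM per kilobase of exonic length. Log2 CPM used a prior count of 2. The fits were tested on simulated data. Alternatives were DESeq2 1.42.0, limma-voom, other scalings and filters, fewer groups, a replicate block and each library left out; leaving out libraries for the lists and the likeness was chosen after seeing the data. Replicates of a group differed by more than sampling noise.

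Genes were named by rule: Usp2, list members with calls, the 8 genes most and 4 least like Usp2 by r, and the 5 with the highest r of deviations. Usp2 and the lists were chosen with earlier results of these data known. The titles number the mice, so pieces with 1 number within an arm were read as 1 mouse; their deviations correlated at 0.075 to 0.441 in exercised and -0.083 to 0.213 in non-exercised mice. Between arms or diets the numbers were taken to name different mice. Promoter sequence and motif shares are from RefSeq. The values of 1 listed clock gene are not reported here.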

Additional observations from a re-analysis of the deposited data

Results flagged for a closer look

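Usp2 itself had no library that stood apart by Dixon's test. In exercised non-tumour liver the gap between 40.3 CPM and the next library (14.4 CPM) was 0.793 of the range, under the critical value for 4 samples. Among Usp2 and the 16 genes named by likeness to it, 17 genes in all, 11 of 85 groups of 4 held a library past that limit (12.9%). Over these and the tested genes of the clock, fasting, other rhythmic and USP2 substrate lists it was 29 of 365 (7.95%). The rest of the protease family and the cell markers were not examined for this. Chance gives about 1 in 20. The 16 genes were picked for likeness to Usp2, which was highest in library 1 of exercised non-tumour liver. Their rate, and the share of that library in it, can therefore not be set against chance. Of the 11, 3 were library 1 of exercised non-tumour liver. Those 3 were Gpcpd1, at 329 CPM against 80.5 CPM in the next library, Cyp2c70, at 418 against 179 CPM, and Cdc42se2, at 13.8 against 16.8 CPM. In exercised tumours Azin1 had 128 CPM in library 2 against 105.5 CPM in the next. In non-exercised tumours Azin1 had 104.9 CPM in library 2 against 92.8 CPM, and Fbxo34 had 12.8 CPM in library 1 against 13.6 CPM. In non-exercised high-fat non-tumour liver Pptc7 (16.8 against 19.5 CPM) and Gpcpd1 (25.5 against 35.5 CPM) were low in library 1, Gne was low in library 4 (81.0 against 99.5 CPM) and Ipp was high in library 2 (15.47 against 13.36 CPM). On the normal diet Cdc42se2 was high in library 2 (18.8 against 16.3 CPM).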

How the results depend on the processing

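The sign of the Usp2 log2 fold change was the same under every alternative run, in all 6 comparisons. For the diet, limma-voom gave -1.17 and no filter -1.20, neither past the threshold, and leaving out 1 library gave -1.30 to -0.97. For tumours of non-exercised mice, limma-voom gave -1.20 and no filter -1.22, and leaving out 1 library gave -1.36 to -1.12. For tumours of exercised mice, leaving out 1 library gave -2.61 to -1.64. With exercise it gave 2.27 to 3.23 in non-tumour liver and 1.75 to 1.91 in tumours, and -1.38 to -0.42 for their difference. The replicate block gave -1.15 for the diet, -2.05 and -1.22 for tumours of exercised and non-exercised mice, 2.72 and 1.85 with exercise and -0.83 for the difference, and changed no Usp2 call; the cause of the lost calls was not tested. Between arms and diets mice share only a number: same-numbered deviations correlated at 0.028 to 0.573 in tumours, -0.392 to 0.030 in non-tumour liver and -0.030 to 0.055 between diets. With exercise in non-tumour liver, edgeR called 2 genes, DESeq2 117 and limma-voom 0, and 1 was called without exercised library 1; in tumours edgeR called 3, DESeq2 79 and limma-voom 4. Fits on the compared groups only and the replicate block called 0 in either tissue; in tumours RLE, upper-quartile scaling and a 1 CPM filter called 1 each, and in non-tumour liver no filter called 1. At an unadjusted p under 0.05 edgeR had 1203 genes in non-tumour liver and 1252 in tumours. Upper-quartile scaling made 68.8% of diet calls higher, against 54.1%. In exercised tumours, edgeR called 4986 genes and, fitted on the compared groups only, 3432; without non-tumour library 1 it called 3804. Of 890 counts over the lists, with each library left out in turn among the alternatives added after seeing the data, 791 stayed within 1.5 times. Counts of 0 in both fits are among the 791, so that number does not show how steady the counts with calls were. Usp2 counts under 25 in non-exercised tumours limit the precision there.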
